A study of Homo sapiens with 3 samples.

Results

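Aminoacyl-tRNA synthetases and the genes of the amino acid stress response were followed in Caco-2 cells, an established human colorectal cancer line, after depletion of OCC-1 (gene symbol C12orf75). The members were 41 genes taken by gene symbol from a list, of 18132 genes on the arrays. This list was chosen with earlier results of these data known. Of the probe sets, 119 carried only the symbol of 1 member. The members comprised 19 cytosolic tRNA synthetases and 22 other genes, namely ATF4, its partner factors and genes reported as ATF4 targets. Total RNA came from 2 OCC-1 knockdown lines, shOCC-1-1 and shOCC-1-2, each with a different short hairpin RNA against OCC-1 (1 array each), and from 1 control line, shCTRL, with a non-target hairpin (1 array). All lines, the control included, carried a lentiviral hairpin, were grown in 20% serum, were held for 5 days in puromycin at 1 µg per ml and were then left 24 hours without it. The sources used here do not say whether a line was a pool or a clone, and 1 array per hairpin gives no replicate check of a single line.

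A tRNA synthetase joins an amino acid to its tRNA, so the set of them supplies every building block of translation. When an amino acid runs short, the kinase GCN2 senses uncharged tRNA and phosphorylates the translation factor eIF2, and the endoplasmic reticulum kinase PERK phosphorylates the same factor when proteins misfold. General translation then slows while the mRNA of the transcription factor ATF4 is translated better, and ATF4, paired with C/EBP-type partners, raises genes for synthetases, amino acid synthesis and amino acid import. ATF4 is controlled largely at translation, which arrays of mRNA do not measure.

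OCC-1 had an intensity of 518 in shOCC-1-1 cells and 397 in shOCC-1-2 cells, against 1219 in shCTRL cells. Array medians were 182 and 184 in the knockdown lines and 186 in the control line. The 23 background control probe sets of the arrays differed from control by log2 -0.37 to 0.06 in shOCC-1-1 cells and by -0.23 to 0.04 in shOCC-1-2 cells, and the part of this shift in the values below was not tested. Of 10 intestinal epithelial markers all 10 passed the intensity filter, among them CDX2 with 1281 and 1223 in the knockdown lines and 1258 in the control line. EPCAM (5602 and 5911, against 3930 in the control line) and CDH1 (5033 and 4891, against 3799) were called higher. Of fibroblast, leukocyte and endothelial markers 3 of 6, 2 of 4 and 1 of 4 passed the filter. LYZ, which intestinal cells also express, was the only one of these called, with 740 and 606, against 381 in the control line.

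The members as a whole were called about as often as other genes. Each gene was read by its brightest probe set, genes with a mean below intensity 184 (the median of all probe sets) were left out, and limma compared the 2 knockdown lines with the control line over the 11329 genes left. Of the 39 members that passed, 3 were higher (CEBPB, PSAT1 and PSPH) and 2 lower (MARS1 and SLC1A5) at an adjusted p of 0.05, and 34 did not pass the test. Among all genes tested 9.63% were called higher and 3.06% lower, 12.7% in all, against 12.8% of the members. At an unadjusted limma p of 0.05, 2023 of the 11329 genes were higher and 1467 lower, and 5 and 7 of the 39 members. With a trend of spread on intensity limma called 1236 genes higher and 429 lower, and 4 and 2 of the members. By size, with each knockdown line 1.5-fold or more away from control on the same side, PSPH was higher and 0 members were lower, where all genes gave 1.36% and 0.159%. Of the 39 members, 13 lay above control in both lines and 22 below, where all genes gave 36.5% and 45.7%. The median log2 difference of the members was -0.10 in shOCC-1-1 cells and -0.04 in shOCC-1-2 cells, beside -0.03 and -0.02 over all genes tested. The 2 differences share 1 control array, and limma had 1 residual degree of freedom and assumes that the lone control varies like the knockdown lines. A permutation over 3 arrays could not go below a p of 0.333.

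**Figure D1:**
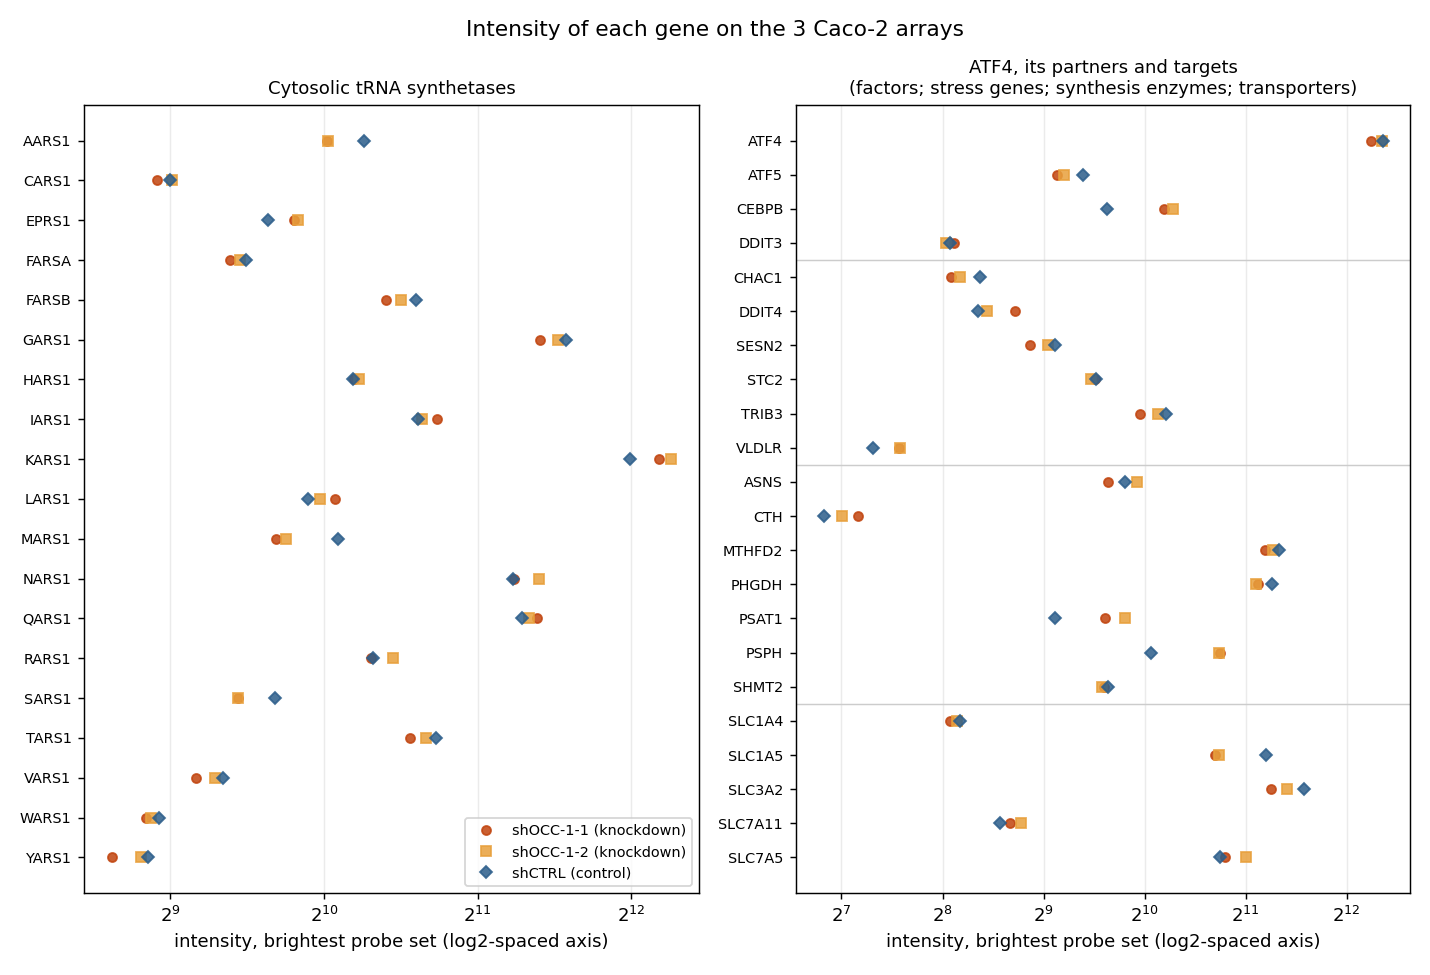
Intensity (log2-spaced axis) of the brightest probe set of each of the 41 genes in the shOCC-1-1 line, the shOCC-1-2 line and the shCTRL line, 1 point per array, with synthetases on the left and the other genes on the right; probe sets differ in brightness, so levels compare along a row only. CEBPB, PSAT1 and PSPH had both knockdown points to the right of control, and SLC1A5 and MARS1 had both to the left.

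A sequence pattern was looked for in the promoters of the members, because ATF4 and C/EBP factors bind as pairs to a composite site of the form TGATGNAA. Many members were listed as reported ATF4 targets, so the choice of members is not independent of this pattern. A higher share among them than among all genes is therefore no separate support. RefSeq promoter windows (GRCh38.p14, 250 bases before to 50 bases after a listed start of a gene) were found for 35 of the 41 members. A gene could have more than 1 listed start, and these members had 53 windows. Both strands were searched. SLC7A11, VARS1, SHMT2, PSPH, YARS1 and LARS1 had no entry. The pattern occurred in 12 of 35 members (34.3%) and in 4.46% of the 27305 genes of the table. By window the shares were 12 of 53 and 3.62% of 35116. The narrower form TGATGCAA, which the first pattern includes, occurred in 9 of 35 members (25.7%) and in 1.08% of genes. The cyclic AMP type site TGACGTCA occurred in 0 of 35 members and in 2.25% of genes. A match describes letters in these windows and is not a site of binding measured here. Of the 7 shown, the first 5 had the lowest differences among members with a match, ASNS is the textbook case and NARS1 had the highest difference. They are printed with 30 bases each on the strand of the gene and the match in capitals.
SLC1A5: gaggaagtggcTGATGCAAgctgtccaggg
MARS1: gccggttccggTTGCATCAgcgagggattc
SLC3A2: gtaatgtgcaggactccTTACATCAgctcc
CHAC1: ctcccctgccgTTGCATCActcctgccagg
AARS1: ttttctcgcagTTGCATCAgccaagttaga
ASNS: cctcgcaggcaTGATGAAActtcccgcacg
NARS1: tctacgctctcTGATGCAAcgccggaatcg
These windows lie at chr19:46784893-46784922 (minus strand) for SLC1A5, chr12:57488053-57488082 (plus) for MARS1, chr11:62881719-62881748 (plus) for SLC3A2, chr15:40953251-40953280 (plus) for CHAC1, chr16:70289675-70289704 (minus) for AARS1, chr7:97872458-97872487 (minus) for ASNS and chr18:57621804-57621833 (minus) for NARS1. The matches of MARS1, SLC3A2, CHAC1 and AARS1 read as the reverse complement of the pattern along the gene, and those of SLC1A5, ASNS and NARS1 read forward. The other members with a match were CARS1, GARS1, IARS1, SLC1A4 and TARS1.

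In SLC1A5 the match begins 97 bases before the listed start on which its window was set. The distance is 68 bases in ASNS, 187 bases in AARS1 and 209 bases in CHAC1. In MARS1 the match begins 4 bases before the listed start and runs across it. In SLC3A2 and NARS1 it begins after the listed start, at bases 38 and 15. Which starts these cells used was not tested. The 150 bases just before that listed start of SLC1A5 (chr19:46784815-46784964, minus strand) are shown for context, as this gene had the lowest difference of the members.
SLC1A5: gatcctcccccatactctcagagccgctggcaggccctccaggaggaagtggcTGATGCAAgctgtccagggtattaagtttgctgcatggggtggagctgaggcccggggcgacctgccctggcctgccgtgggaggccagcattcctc
Of the 12 members with a match, 0 were called higher and 2 lower by limma, 2 lay above control in both lines and 8 below, and their median log2 difference was -0.12. Of the 21 tested members with an entry and no match, 2 were higher (CEBPB and PSAT1) and 0 lower, 8 lay above control in both lines and 11 below, and their median was -0.03. Whether these sets differ was not tested.

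Of the 3 members called higher, 2 were enzymes of serine synthesis. PSPH, the phosphatase that makes serine in the last step, had 1715 in shOCC-1-1 cells and 1711 in shOCC-1-2 cells, against 1072 in shCTRL cells. Both knockdown values lay well above control and almost on each other, at 1.60-fold in each line (log2 difference 0.68 ± 0.07 SE, limma adjusted p = 0.0053), and PSPH ranked 105 from the top among 11329 genes. Its next probe set had 263 and 255 in the knockdown lines, against 178 in the control line, and was also called when every probe set was tested by itself (limma adjusted p = 0.004). The dimmest, below the filter, had 74.0 and 74.3, against 76.2, and a mean over all 3 probe sets gave a log2 difference of 0.39. RefSeq lists 1 pseudogene of PSPH, and all 3 of its probe sets are of types whose probes may bind other transcripts.

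PSAT1, the aminotransferase of the preceding step, had 780 in shOCC-1-1 cells and 894 in shOCC-1-2 cells, against 554 in shCTRL cells. Both lines lay above control by more than the gap between them, at 1.41-fold and 1.61-fold (log2 difference 0.59 ± 0.10 SE, limma adjusted p = 0.013). The 8 PSAT1 probe sets did not move by the same amount. The probe set ranked 3 by brightness had 546 and 598 in the knockdown lines, against 312 in the control line, which is 1.75-fold and 1.92-fold (limma adjusted p = 0.0015 with every probe set tested). The one ranked 2 had 522 and 600, against 527, and the one ranked 4 443 and 462, against 444, so that the shOCC-1-1 value lay just under control in both. Averaged over all probe sets PSAT1 had a log2 difference of 0.31 and was still called (limma adjusted p = 0.045). RefSeq lists 4 pseudogenes of PSAT1. Its probe sets ranked 1 and 3 are of a type whose probes may bind other transcripts, while those ranked 2 and 4 are of another type. Those ranked 5 and 6 share the type of ranks 2 and 4 and lay above control in both lines. The one ranked 6 had 290 and 300, against 230, and was called higher when every probe set was tested (limma adjusted p = 0.018).

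PHGDH, the first enzyme of serine synthesis, was not called. Its 1 probe set had 2227 and 2201 in the knockdown lines, against 2448 in the control line, both slightly below it (log2 difference -0.14 ± 0.07 SE, limma adjusted p = 0.23). SHMT2, which turns serine into glycine in mitochondria, had 775 and 767, against 796, and its 4 probe sets all lay between log2 -0.11 and -0.03 by mean difference. ASNS, asparagine synthetase and a classical ATF4 target, had 796 in shOCC-1-1 cells and 975 in shOCC-1-2 cells, against 897 in shCTRL cells, so the lines fell on either side of control. RefSeq lists 5 pseudogenes of ASNS, and this probe set is of a type whose probes may bind other transcripts. CTH, the cystathionine gamma-lyase of cysteine synthesis, had 143 and 129, against 113, and lay below the filter. In a fit without a filter its log2 difference was 0.26 (limma adjusted p = 0.059).

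MTHFD2, a mitochondrial folate enzyme, gave no single answer. Its brightest probe set had 2347 and 2476 in the knockdown lines, against 2571 in the control line, and was not called. The second had 2426 and 2539, against 1802, and was called higher when every probe set was tested (limma adjusted p = 0.007). The dimmest had 708 and 781, against 928, and was called lower (limma adjusted p = 0.043). MTHFD2 was the only member with calls in both directions, and RefSeq lists 7 pseudogenes named after it.

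**Figure D2:**
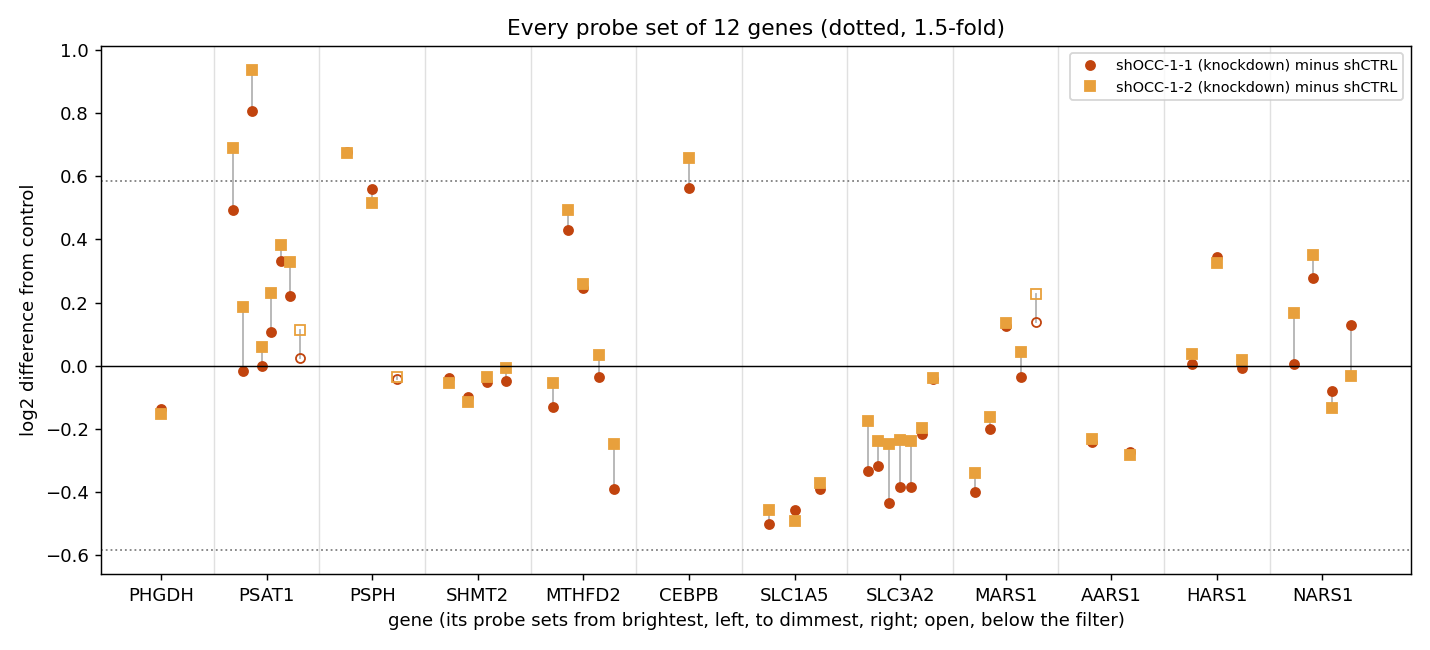
Log2 difference from control of every probe set of 12 genes, with shOCC-1-1 and shOCC-1-2 as separate points joined by a line, from the brightest probe set at the left of each gene; open points lie below the filter and dotted lines mark 1.5-fold. The SLC1A5 probe sets lay together, while those of PSAT1 ranged in mean difference from 0.03 to 0.87 and those of MTHFD2 fell on both sides of 0.

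Among the transcription factors only CEBPB was called. CEBPB encodes a C/EBP factor that can pair with ATF4. It had 1167 in shOCC-1-1 cells and 1247 in shOCC-1-2 cells, against 790 in shCTRL cells. Both lines were above control, at 1.48-fold and 1.58-fold, the first just short of the size rule (log2 difference 0.61 ± 0.08 SE, limma adjusted p = 0.0072), and no other probe set of it was on the arrays. This probe set is of a type whose probes may bind other transcripts. ATF4 mRNA itself had 4837 and 5235, against 5241, and was not called (log2 difference -0.06 ± 0.08 SE, limma adjusted p = 0.67). RefSeq lists 4 pseudogenes of ATF4, and its 1 probe set is also of a type whose probes may bind other transcripts. DDIT3, which encodes the stress factor CHOP, had 277 and 262, against 269, on either side of control, and its other probe set had 249 and 236, against 249. ATF5, a relative of ATF4, had 563 and 589, against 673, and all 4 of its probe sets lay below control in both lines, but it was not called (log2 difference -0.22 ± 0.08 SE, limma adjusted p = 0.10).

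Stress effectors and feedback genes gave 0 calls among 5 tested, both in limma and in limma with a trend of spread on intensity. At an unadjusted limma p of 0.05, 0 were higher and 1 lower. Over all 11329 genes tested limma called 12.7%, with 2023 higher and 1467 lower at that unadjusted p. A group of 5 genes is too small to be set apart from these shares. CHAC1, an enzyme that breaks down glutathione, had 272 and 290 in the knockdown lines, against 332 in the control line. Both lay below control (log2 difference -0.24 ± 0.08 SE, limma adjusted p = 0.092). TRIB3, a pseudokinase that feeds back on ATF4, had 994 and 1121, against 1190, and its second probe set 320 and 329, against 385. SESN2, a leucine sensor of the mTORC1 pathway, had 467 and 527, against 554. These 3 genes thus lay below control on both arrays by amounts that did not pass the test. DDIT4, an inhibitor of mTORC1 also known as REDD1, had 421 in shOCC-1-1 cells, 347 in shOCC-1-2 cells and 327 in shCTRL cells, so that the first line stood apart from the other two arrays (limma adjusted p = 0.25). STC2, a secreted stress glycoprotein, had 729 and 709, against 733. VLDLR, a lipoprotein receptor, had 189 and 191, against 159, and lay just below the filter. Without a filter it had a log2 difference of 0.26 (limma adjusted p = 0.038).

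Of the amino acid transporters SLC1A5 was lower and the other 4 tested did not pass. SLC1A5, the main importer of glutamine in many tumour cells, had 1658 in shOCC-1-1 cells and 1709 in shOCC-1-2 cells, against 2348 in shCTRL cells. Both lines lay below control, at 70.6% and 72.8% of it (log2 difference -0.48 ± 0.07 SE, limma adjusted p = 0.011), and SLC1A5 ranked 61 from the bottom among 11329 genes. Its other 2 probe sets had 1292 and 1262, against 1775, and 513 and 520, against 673, and each was called when every probe set was tested (limma adjusted p = 0.0059 and 0.013). All 3 probe sets of SLC1A5 were thus called lower. The brightest is of a type whose probes may bind other transcripts, and the other 2 are of another type.

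SLC3A2, the heavy chain that carries several transporters to the surface, had 2431 and 2713 in the knockdown lines, against 3064 in the control line. It lay below control in both lines (log2 difference -0.25 ± 0.09 SE) without passing (limma adjusted p = 0.11). All 7 of its probe sets lay below control in both lines, and 4 of them were called lower when every probe set was tested, of which those ranked 4 and 5 by brightness differed from control by nearly the same amounts (log2 -0.39 and -0.24 in each). Its light chains were not called. SLC7A5, the leucine transporter LAT1, had 1773 and 2049, against 1723, and SLC7A11, the cystine importer xCT, had 407 and 438, against 380, both above control in both lines in the brightest probe set without passing (limma adjusted p = 0.37 and 0.25). The second SLC7A11 probe set had 275 and 292, against 302, below control in both lines. SLC1A4, an alanine and serine transporter, had 269 and 282, against 289.

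**Figure D3:**
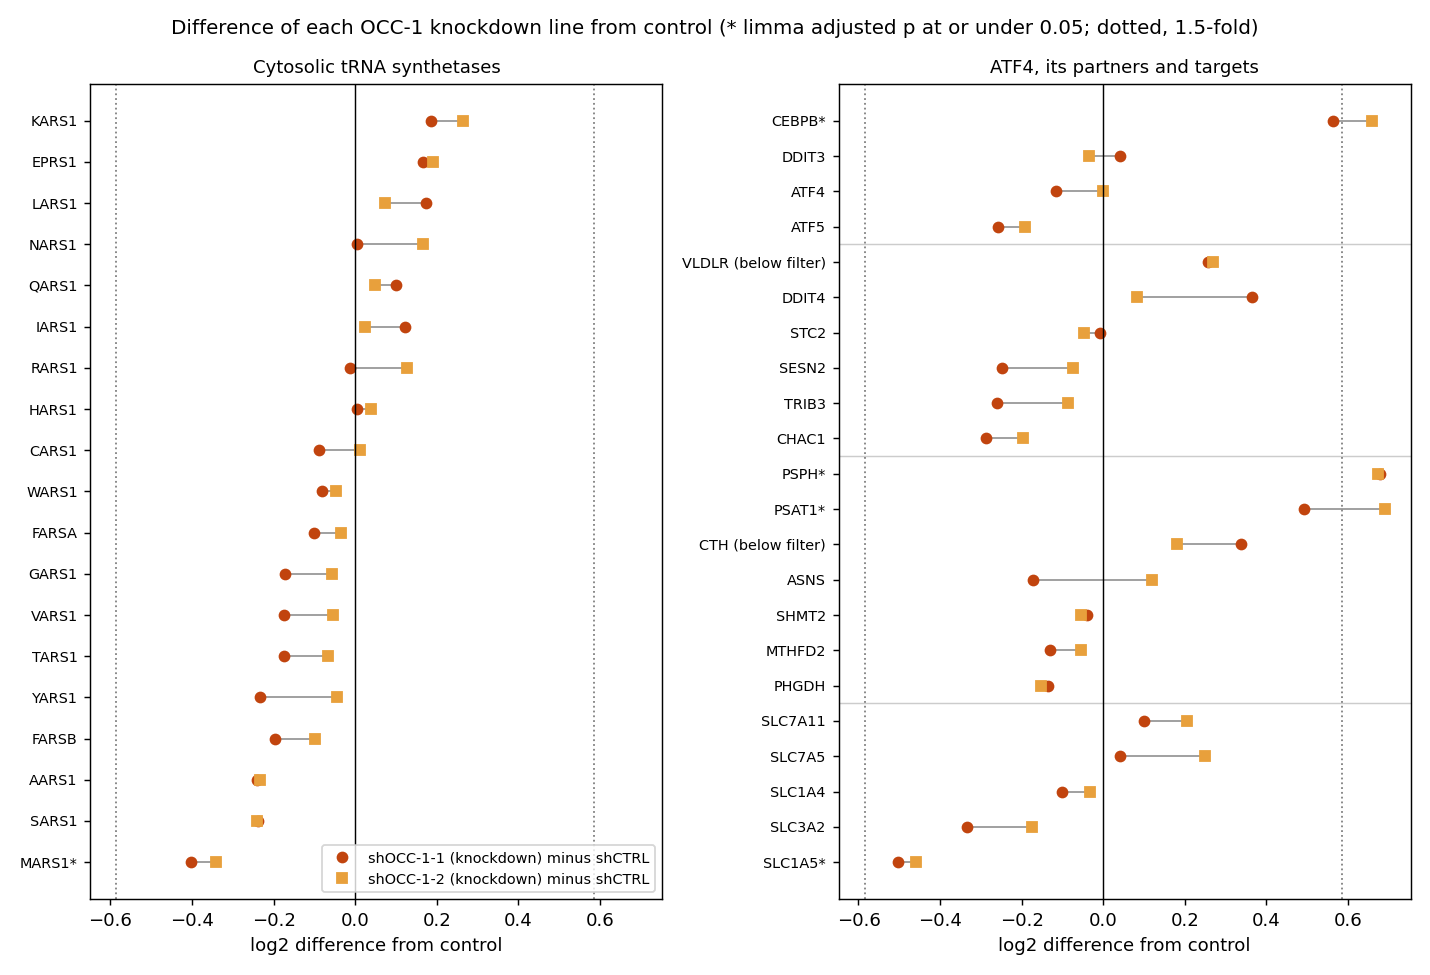
Log2 difference from control of the brightest probe set in shOCC-1-1 cells and shOCC-1-2 cells, sorted within each role, with an asterisk where limma's adjusted p was at or under 0.05 and dotted lines at 1.5-fold. The synthetases on the left all lay between -0.37 and 0.22 by mean difference, and the 5 called genes were PSPH, CEBPB, PSAT1, SLC1A5 and MARS1.

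The 19 cytosolic tRNA synthetases stayed within log2 -0.37 to 0.22 of control by mean difference, and 0 of them were 1.3-fold away the same way in both lines, where all genes gave 5.31% higher and 0.936% lower. In limma 0 were higher and 1 lower. At an unadjusted p of 0.05 there were 2 higher and 3 lower, where all 11329 genes gave 2023 and 1467. Limma with a trend gave 1 and 1, where all genes gave 1236 and 429. Their median log2 difference was -0.09 in shOCC-1-1 cells and -0.04 in shOCC-1-2 cells, with 7 above control in both lines, 10 below and 2 on either side.

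MARS1, which charges methionine, was the synthetase called lower, with 825 in shOCC-1-1 cells and 861 in shOCC-1-2 cells, against 1091 in shCTRL cells. Both lines lay below control, at 75.7% and 79.0% of it (log2 difference -0.37 ± 0.08 SE, limma adjusted p = 0.025). Its second probe set had 764 and 785, against 878, while the third had 341 and 343, against 313, above control in both lines. The mean over all MARS1 probe sets had a log2 difference of -0.05 and was not called (limma adjusted p = 0.64). The brightest and the third MARS1 probe sets are of a type whose probes may bind other transcripts.

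SARS1, which charges serine, and AARS1, which charges alanine, came next. SARS1 had 695 and 693 in the knockdown lines, against 819 in the control line (log2 difference -0.24 ± 0.07 SE, limma adjusted p = 0.078). AARS1 had 1037 and 1043, against 1225 (log2 difference -0.24 ± 0.07 SE, limma adjusted p = 0.080). Each had both knockdown arrays below control and close together. The second AARS1 probe set had 1001 and 994, against 1210, and was called lower when every probe set was tested (limma adjusted p = 0.043). YARS1, FARSB, TARS1, VARS1, GARS1, FARSA and WARS1 also lay below control in both lines in the brightest probe set, at 85.1% to 94.5% of it in shOCC-1-1 cells and 93.4% to 97.5% in shOCC-1-2 cells. Other probe sets of the same genes did not all follow. The third TARS1 probe set had 1451 and 1538, against 1310, and the second WARS1 probe set had 356 and 370, against 340, both above control in both lines.

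KARS1, which charges lysine, had the highest mean difference of the synthetases, with 4642 and 4898 in the knockdown lines, against 4081 in the control line. Both lines lay above control (log2 difference 0.22 ± 0.08 SE), and among the alternatives run it passed only in limma with a trend (limma adjusted p = 0.10 without the trend and 0.046 with it). Its second probe set had 2684 and 2666.5, against 2750. EPRS1, a joined enzyme for glutamate and proline, had 893 and 909, against 795, and LARS1, which charges leucine, 1076 and 1004, against 954. The dimmest LARS1 probe set, with 276 and 277, against 215, was called higher when every probe set was tested (limma adjusted p = 0.016). HARS1, for histidine, had 1173 and 1201, against 1169, while its second probe set had 827 and 817, against 651 (limma adjusted p = 0.022). NARS1, for asparagine, had 2412 and 2697, against 2403, while its second had 1614 and 1697, against 1331 (limma adjusted p = 0.032). For LARS1, HARS1 and NARS1 the brightest probe set was thus not called while a dimmer one was. QARS1 and IARS1, for glutamine and isoleucine, lay 1.02-fold to 1.09-fold above control in the brightest probe set, and RARS1 and CARS1, for arginine and cysteine, fell on either side of control.

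When every probe set was tested by itself, 103 of the 119 member probe sets passed the filter, 10 were called higher and 10 lower. That is 9.71% and 9.71%, where all 22670 probe sets gave 11.3% higher and 3.92% lower. By size, 2 probe sets, 1 of PSAT1 and 1 of PSPH, were 1.5-fold higher in both lines and 0 were lower, where all probe sets gave 1.41% and 0.11%. Of the 103, 36 lay above control in both lines and 52 below, where all probe sets gave 37.8% and 44.7%. Of 30 members with more than 1 such probe set, 5 had all of them above control in both lines, 8 had all below, and 17 were mixed. Probe sets of a gene share its transcripts, so they are not independent readings.

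The genes around the members were read from 7 lists. The lists held 94 tested genes, of which 14 were higher and 2 lower, 14.9% and 2.13%, beside 9.63% and 3.06% of all genes. The lists were chosen with earlier results of these data known, so a share above that of all genes is no test of a pathway. The kinases and other machinery that act on eIF2 held 5 higher and 0 lower of 16 (limma, with 5 higher and 1 lower at an unadjusted p of 0.05, and 5 and 0 with a trend). EIF2AK4, which encodes the amino acid sensing kinase GCN2, had 625 and 610 in the knockdown lines, against 391 in the control line, 1.60-fold and 1.56-fold (limma adjusted p = 0.0053). It was read by 1 probe set above the filter, of a type whose probes may bind other transcripts. EIF2AK3, which encodes PERK, had 640 and 682, against 458 (limma adjusted p = 0.010), and its other probe set lay at log2 0.45 and 0.52. EIF2S3, a subunit of eIF2, had 1844 and 2131, against 1238, but its 3 other probe sets had medians of 0.15 and 0.24. PPP1R15B, a subunit of the phosphatase that acts on eIF2, had 664 and 653, against 468, and its other probe set lay at 0.11 and 0.00. IMPACT was the other gene called higher. The brightest probe sets of EIF2AK3 and EIF2S3 are also of a type whose probes may bind other transcripts. The median over the list was -0.02, as it was over all genes.

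Serine, glycine and one-carbon enzymes outside the members held 3 higher and 0 lower of 8 tested in limma, and their median was 0.22. There were 4 and 0 both at an unadjusted limma p of 0.05 and with a trend. Over all 11329 genes limma called 9.63% higher and 3.06% lower, with 2023 and 1467 at that unadjusted p and 1236 and 429 with a trend. For 8 genes from a list chosen with earlier results known, the difference in shares is no test of this pathway. GLDC, the decarboxylase of glycine cleavage, had 2382 and 2283 in the knockdown lines, against 1527 in the control line (limma adjusted p = 0.0065), and its other probe set lay at log2 0.52 and 0.41 and was also called. GCSH, another part of that system, had 272 and 269, against 207 (limma adjusted p = 0.019). MTHFD1L, a mitochondrial formate enzyme, had 863 and 954, against 698 (limma adjusted p = 0.036). Its 3 other probe sets had medians of 0.08 and 0.14. The brightest probe sets of GLDC and MTHFD1L are of a type whose probes may bind other transcripts.

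Other genes reported as ATF4 targets went both ways, with 2 higher and 1 lower of 18, where all genes gave 9.63% and 3.06%. XPOT, the exporter of tRNA from the nucleus, had 1942 and 2053, against 1276 in the control line (limma adjusted p = 0.0058). SLC38A2, a transporter of small neutral amino acids, had 2067 and 2106, against 1535 (limma adjusted p = 0.013). GDF15, a secreted stress factor, had 758 and 687, against 992 (limma adjusted p = 0.019), and was lower. Its brightest probe set is of a type whose probes may bind other transcripts. At an unadjusted limma p under 0.05, 5 were higher and 6 lower, where all 11329 genes gave 2023 and 1467. Limma-trend called 2 higher and 2 lower, where all genes gave 1236 and 429. ATF3, EIF4EBP1 and PYCR1 were not called in the test over genes, and 1, 1 and 2 of their other probe sets were called lower when every probe set was tested. NUPR1, below the filter on dim probe sets, had 159 and 159, against 214 (limma adjusted p = 0.0016 without a filter). The list's median of -0.10 lay below that of all genes.

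The ATF6 and XBP1 branch of the unfolded protein response held 3 higher and 0 lower of 18 in limma. There were 5 and 1 at an unadjusted limma p of 0.05, and 3 and 0 with a trend. Over all 11329 genes limma called 9.63% higher and 3.06% lower, with 2023 and 1467 at that unadjusted p and 1236 and 429 with a trend. These shares also stand beside the lists that follow. HSPA5, the chaperone BiP, had 4709 and 4882, against 3246 in the control line (limma adjusted p = 0.0079), DNAJC3 had 595 and 567, against 440, and SEL1L had 1422 and 1261, against 1029. The 5 other HSPA5 probe sets had medians of 0.36 and 0.16, and 1 of them was called. The brightest HSPA5 probe set is of a type whose probes may bind other transcripts. The other SEL1L probe set lay at log2 0.03 and -0.08 and was not called. HSP90B1 was not called by its brightest probe set, but 4 of its 6 others were called higher when every probe set was tested (medians 0.41 and 0.30). Mitochondrial synthetases held 1 higher and 0 lower of 16 (limma, with 4 and 1 at an unadjusted p of 0.05, and 1 and 0 with a trend). The called gene was MARS2, the mitochondrial counterpart of MARS1, which had 473 and 523, against 359 (limma adjusted p = 0.018). Amino acid sensing genes upstream of mTORC1 held 0 higher and 1 lower of 16 (limma, with 0 and 3 at an unadjusted p of 0.05, and 0 and 1 with a trend), LAMTOR4 with 1676 and 1605, against 2021 (limma adjusted p = 0.047).

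**Figure D4:**
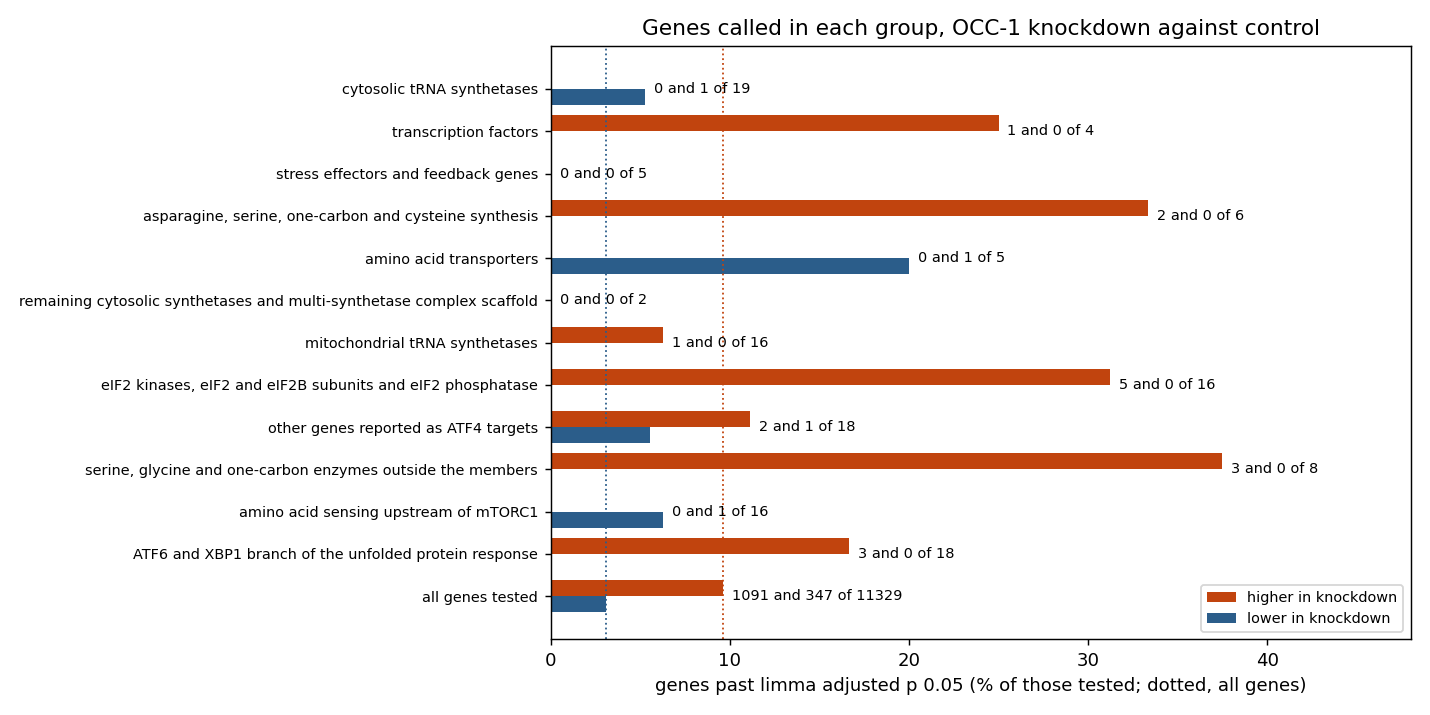
Share of the tested genes of each group that limma called higher or lower in OCC-1 knockdown than in control at an adjusted p of 0.05, with the counts beside the bars and dotted lines at the shares of all genes. The synthetases had 0 higher and 1 lower of 19, and the eIF2 list had 5 higher of 16. Groups were chosen with earlier results of these data known.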

How the data were processed

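The authors deposited, for 49395 probe sets on 3 arrays, linear intensities, and RMA is named in the submitters' processing notes without version or settings. Scaling and background subtraction are not given in the sources used here. The number of arrays limits the precision. No arrays held identical values. Intensities were converted to log2 here with no further normalization. The platform annotation gave 44988 probe sets 1 gene symbol. The brightest probe set stood for each gene, with a filter at the median of all probe sets (log2 7.52). limma 3.58.1 in R 4.3.3 (moderated two-sided tests from lmFit and eBayes, with Benjamini-Hochberg adjustment over all 11329 genes) used all 3 arrays, and a second fit took 22670 probe sets singly. Nothing says that the knockdown lines repeat a single culture. The spread of a gene came from its 2 knockdown arrays with 1 residual degree of freedom. Limma moderated it toward the spread over all genes, for 6.96 degrees of freedom in total. SEs and p-values thus rest largely on that pooled spread between 2 hairpins, which may be technical in part. Members described with every value were those called, the extremes of each role and ATF4, DDIT3, ASNS, TRIB3, CHAC1 and SLC7A11, and other values were added after they were seen. From the other lists the called genes with the largest differences are given. Members and lists were chosen with earlier results of these data known. Alternatives covered probe set choice, filter, normalization, background correction, fold and each hairpin. Python 3.11.15 with numpy 2.4.6, pandas 2.3.3 and matplotlib 3.10.9 did the rest.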

Additional observations from a re-analysis of the deposited data

How the results depend on the processing

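CEBPB, PSAT1 and PSPH were called higher and SLC1A5 lower under each alternative fit run, and MARS1 was lost with the mean of all probe sets, where AARS1 was called lower instead. Quantile normalization also called AARS1, SARS1 and SLC3A2 lower, limma-trend also called KARS1 higher, and the fit without a filter VLDLR higher. Members called higher numbered 3, against 7 with every probe set tested by itself. Members called lower numbered 2, against 5 with every probe set by itself and 5 after quantile normalization. Members 1.5-fold higher in both lines numbered 1, against 0 with the mean of all probe sets, 2 with every probe set, 3 at 1.3-fold, 0 at 2-fold, and 1 to 3 when 1 hairpin was left out (3 without shOCC-1-1). Members lower by that rule numbered 0, against 1 at 1.3-fold. Other pathway genes called lower numbered 2, against 4 without a filter and 4 after cyclic loess. When probe sets were averaged, the uncalled differences turned for DDIT3 (-0.019) and ASNS (0.0021). The cause was not tested in these cases. Of 118 tested values for 15 members under alternatives, 114 kept direction and side of the threshold. Direction could not change with every probe set by itself, with either change of filter or with limma-trend. Those settings reuse the same log2 differences, so only the side of the threshold could move. Leaving out 1 hairpin gives no test, and it kept the direction in 28 of 30 values, with the uncalled ASNS (-0.17 and 0.12) and DDIT3 (-0.04 and 0.04) differing in sign between the hairpins. No paired analysis was possible because there was only 1 control array.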

Other observations

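AIMP1, a scaffold protein of the multi-synthetase complex, was not called by its brightest probe set, which had 2094 and 1992 in the OCC-1 knockdown lines, against 1768 in the control line (limma adjusted p = 0.12). Its 4 other probe sets above the filter had medians of log2 0.54 and 0.53, and 3 of them were called higher when every probe set was tested. The 7 measured synthetases that sit in this complex (EPRS1, IARS1, KARS1, LARS1, MARS1, QARS1 and RARS1) had a median log2 difference of 0.07, with 5 above control in both lines, against -0.11 for the 12 others, with 2 above control in both lines. This division was made after the values were seen and was not tested. MARS1, the 1 member of the complex below control in both lines, goes against it.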
